A study of Mus musculus with 12 samples.

Results

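The genes described here are the splicing regulators of the SR, TRA2, CLK, hnRNP and RBM families. They were chosen by symbol: every gene of the count table named Srsf followed by a number, Tra2a or Tra2b, Clk1 to Clk4, any name starting with Hnrnp, or Rbm followed by a number, pseudogenes excepted. The rule took 71 of the 14881 genes measured, made up of 11 Srsf, 2 Tra2, 4 Clk, 20 Hnrnp and 34 Rbm genes. Of 78 annotated mouse genes that match it, 7 (Rbm31y, Rbm3os, Rbm42, Rbm44, Rbm46os, Rbm47 and Rbm8a2) were not analysed here. All 71 passed the filter on low counts, and the lowest count of any member in a library was 14 reads, for Rbm38.

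SR proteins bind exonic enhancers through RNA recognition motifs and recruit the spliceosome through domains rich in arginine and serine, which CLK kinases phosphorylate in the nucleus. The TRA2 proteins are SR-like activators that bind GA-rich exonic enhancers. The hnRNP proteins coat nascent RNA and often oppose exon inclusion, while the RBM genes are a collection named only for a shared RNA-binding domain, with members in the spliceosome, the exon junction complex and RNA decay. Many of these genes, SR and TRA2 genes in particular, hold poison exons through which the encoded protein lowers its own mRNA. Brain tissue uses alternative splicing more than most tissues.

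RNA was sequenced from 12 male APPswe mice, a transgenic line that carries mutant human amyloid precursor protein, aged 22 to 26 months, with 1 library for each mouse. Each mouse had received 5 µL of the adeno-associated vector AAV1-CMV-mVEGF-C or AAV1-CMV-eGFP into the cisterna magna. CMV is a promoter active in many cell types, mVEGF-C is the mouse lymphatic growth factor and eGFP, a fluorescent protein, is its vector control. Weekly intraperitoneal injections of mAducanumab (mAdu), an antibody to aggregated amyloid beta, or of control mIgG, each at 40 mg/kg, were given as well. The 4 groups of 3 mice were mVEGF-C+mAdu (libraries 10 to 12), mVEGF-C+mIgG (libraries 7 to 9), eGFP+mAdu (libraries 4 to 6) and eGFP+mIgG (libraries 1 to 3). No group was left without a vector or an antibody, so that all comparisons are between injected mice of the same amyloid-bearing strain.

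The labels are not at one about the tissue: right hippocampus in the text on the series, brain meninges in the source field of the samples. Excitatory neuron markers summed to between 1970 and 2223 CPM in a library (CPM, a count scaled to the library total with its TMM factor), against 54.1 to 136 CPM for meningeal fibroblast markers. Markers of the hippocampal CA1 field summed to 442 to 520 CPM and those of dentate granule cells to 218 to 310 CPM. The libraries were therefore not of meninges alone. Library totals ran from 23213612 to 29295266 reads. Vegfc, the gene the vector carries, had 2.65 to 3.44 CPM in mVEGF-C+mAdu, 2.21 to 3.67 CPM in mVEGF-C+mIgG, 3.13 to 3.50 CPM in eGFP+mAdu and 3.21 to 3.58 CPM in eGFP+mIgG, so the label of the vector cannot be checked from it in this tissue. Libraries 3, 6, 9 and 12 stood apart in another way. Among genes that vary within a group beyond counting noise, each of these libraries lay between the other 2 of its group for 79.2% to 85.9% of genes, where an equal share would be 33.3%. A library pooled from the other 2 would lie there as well. Whether these libraries are pools was not tested. If they were, each group would hold 2 independent mice, and the SDs and p-values given for 3 would be too small. Calls and the combined changes of the members that passed are therefore also given without them. These are bulk samples, in which fewer cells of a type and less RNA per cell cannot be told apart.

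Levels per kilobase of exon spanned a wide range. The members had a median of 8.39 CPM per kb, against 4.98 for all genes, and a median coefficient of variation over the 12 libraries of 5.53%, against 6.93% for all genes. The coefficient also depends on the level through counting noise, and no genes matched for level were compared. Hnrnpk, which encodes a poly(C)-binding hnRNP, was highest at 70.2 CPM per kb, followed by Srsf5 at 53.1, Hnrnpab at 47.7 and Hnrnpc, whose protein binds uridine tracts and shields cryptic exons, at 46.6. Their standard deviations over the 12 libraries were 1.29, 4.82, 1.28 and 2.52 CPM per kb, so that the last 2 of these do not differ beyond their spread. In the Srsf family Srsf1 (36.2 CPM per kb) and Srsf2 (34.3) came next, and Srsf11 was lowest at 8.39. Among the Rbm genes Rbm39, an SR-like partner of the U2AF splicing factor, led at 36.9 CPM per kb, ahead of Rbm17 (19.3), Rbm45 (17.5) and the cold-induced Rbm3 (17.4). The lowest were Rbm38, a p53 target, at 0.291 CPM per kb, the germ-cell gene Rbm46 at 0.417, Rbm20, the regulator of titin splicing in heart, at 0.550, and Rbm4 at 1.2. Hnrnph3 (3.93), Hnrnpll (5.19), Hnrnpr (5.49) and Hnrnpd (6.67) were lowest in their family. Exon length was the union of all annotated exons, which can far exceed a single transcript. It was 22199 bases for Hnrnpr and 8446 for Srsf11, against median transcript lengths of 2543 and 1643 bases. The order of genes per kb therefore also depends on the annotation.

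Counts of several members are uncertain because it is not stated whether counting used the strand. Srsf4 shares 43.0% of its exon length with Gm12992, Rbm4b 30.8% with Gm37206 and Hnrnpab 29.1% with Phykpl, each on the opposite strand, and the shares are 8.33% for Rbm12b2 with Tmem67 and 6.60% for Rbm18 with Mrrf. On the same strand Rbm4 shares 60.5% of its exon length with the readthrough gene Gm21992 and Rbm12 shares 32.6% with Gm28036. The near-identical copies Rbm12b1 and Rbm12b2, the pair Rbm4 and Rbm4b, and Hnrnpa1 with its processed pseudogenes may also exchange reads.

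Across the members, the mVEGF-C+mAdu group had the highest mean most often. It was highest for 36 of 71 members, against 30.3% of all genes, mVEGF-C+mIgG was highest for 12, against 20.9%, eGFP+mAdu for 7, against 22.3%, and eGFP+mIgG for 16, against 26.6%. The lowest mean was in eGFP+mAdu for 25 members, against 23.7% of all genes. When mVEGF-C+mAdu was set against eGFP+mIgG (the combined contrast), 7 of 71 members passed at an adjusted p under 0.05 (edgeR quasi-likelihood test, Benjamini-Hochberg over all genes). Of all genes tested, 2.18% passed in this contrast, 1.19% higher and 0.988% lower. Srsf10, Srsf7, Tra2a, Rbm12b2, Rbm18 and Rbm41 rose, and Hnrnpul1 fell. At an unadjusted p under 0.05 there were 14 members, or 19.7%, which is close to the 20.4% of all genes. None of the 7 passed once libraries 3, 6, 9 and 12 were left out, although their changes kept their direction, at 0.32 for Srsf10, 0.21 for Srsf7, 0.26 for Tra2a, 0.62 for Rbm12b2, 0.24 for Rbm18, 0.42 for Rbm41 and -0.17 for Hnrnpul1 (adjusted p = 0.56 for each). Of all genes 0.0134% passed without these libraries. With all libraries, 3 of the 7 passed once each library's trend with GC content was removed.

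**Figure D1:**
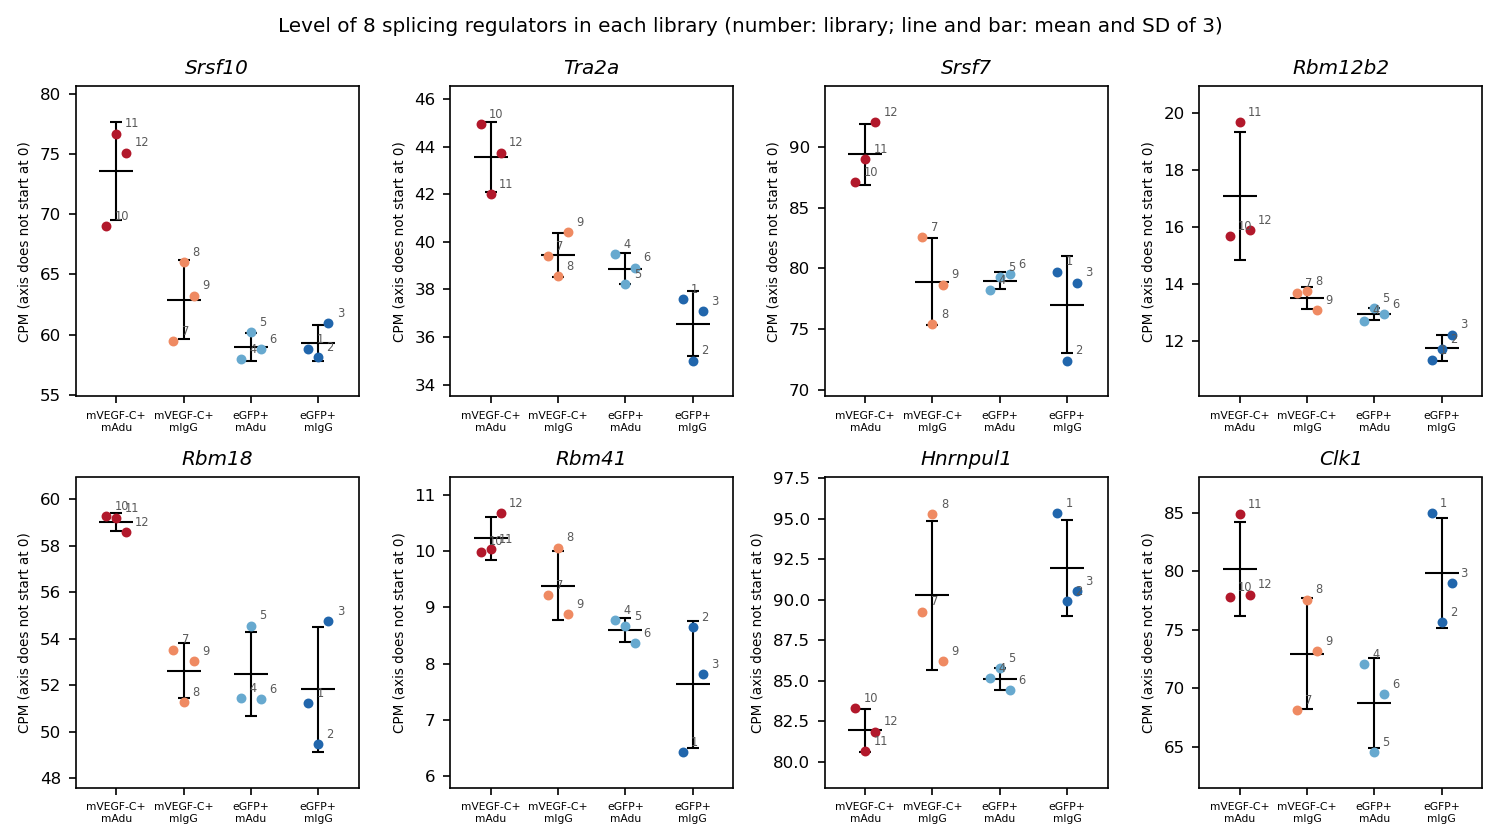
Level in CPM (vertical axes, which do not start at 0) of 8 splicing regulators in each of the 12 libraries, by group, with the library number at each point and the mean and SD of 3 as a line and bar. All 3 mVEGF-C+mAdu points of Srsf10, Tra2a, Srsf7, Rbm12b2 and Rbm18 lie above every point of the other 3 groups, and the mean of Clk1 is lowest in eGFP+mAdu.

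Srsf10 encodes an SR protein that activates splicing when phosphorylated and turns into a general repressor when heat shock removes its phosphates. It had the smallest p of all members in the comparison of the 4 groups and lies at chr4:135855747-135869908 on the plus strand of GRCm38. Srsf10 stood at 69.0, 76.7 and 75.1 CPM in the mVEGF-C+mAdu libraries and at 59.4, 66.0 and 63.2 CPM in the mVEGF-C+mIgG libraries. It stood at 58.0, 60.2 and 58.8 CPM in the eGFP+mAdu libraries and at 58.8, 58.2 and 61.0 CPM in the eGFP+mIgG libraries. Every mVEGF-C+mAdu library was above every library of the other groups, which overlapped each other. The change was 0.31 on the log2 scale (SE 0.048) in the combined contrast, with an adjusted p of 0.00895 (edgeR). It was 0.32 (SE 0.048, adjusted p = 0.0265) for mVEGF-C against eGFP under mAdu, where Srsf10 was the only member of 71 to pass, against 0.047% of all genes. For mAdu against mIgG under mVEGF-C it was 0.23 (adjusted p = 0.0613), which did not pass. Under the other background of each treatment the changes were 0.08 for mVEGF-C under mIgG and -0.01 for mAdu under eGFP. The interaction of vector and antibody was 0.23 (SE 0.069, adjusted p = 0.514), so a difference between these backgrounds was not shown. After removal of the GC trend the combined change of Srsf10 was 0.26 (adjusted p = 0.0251), and the change of mVEGF-C under mAdu was 0.28 (adjusted p = 0.0599). Without libraries 3, 6, 9 and 12 the combined change was 0.32 (adjusted p = 0.56).

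Srsf7, at chr17:80200080-80207307, encodes a zinc-knuckle SR protein that also takes part in mRNA export. Srsf7 stood at 87.1, 89.0 and 92.1 CPM in the mVEGF-C+mAdu libraries and at 82.6, 75.5 and 78.7 CPM in the mVEGF-C+mIgG libraries. It stood at 78.2, 79.3 and 79.5 CPM in the eGFP+mAdu libraries and at 79.7, 72.4 and 78.8 CPM in the eGFP+mIgG libraries. The mVEGF-C+mAdu libraries were again above all others, and the other 3 groups overlapped. The combined change of Srsf7 was 0.21 (SE 0.045, adjusted p = 0.0289), and after GC removal it was 0.18 (adjusted p = 0.078).

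Srsf5 had its lowest mean in mVEGF-C+mAdu, and its call differed between tools. Srsf5 stood at 208, 178 and 193 CPM in the mVEGF-C+mAdu libraries and at 216, 219 and 216 CPM in the mVEGF-C+mIgG libraries. It stood at 217, 203 and 210.1 CPM in the eGFP+mAdu libraries and at 254, 198 and 231 CPM in the eGFP+mIgG libraries. Its eGFP+mIgG libraries spread widely, with library 1 above every other library and library 2 within the mVEGF-C+mAdu range, so these groups overlapped. The combined difference was -0.24 (SE 0.070, edgeR adjusted p = 0.0758) as counted, and DESeq2 and limma-voom called it on the same counts. With the GC trend removed it was -0.29 and passed (adjusted p = 0.0494). The GC content of its transcript is 43.5%.

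The other 8 Srsf genes did not pass in any contrast with edgeR or DESeq2. Limma-voom called Srsf3 in 3 contrasts and over the 4 groups, Srsf4 for mAdu under mVEGF-C and over the 4 groups, and Srsf11 over the 4 groups. Srsf3, the smallest SR protein, had the nearest value among them, 0.13 (SE 0.041, adjusted p = 0.0981) in the combined contrast and 0.06 after GC removal, with group means of 144 ± 4.46, 134 ± 3.97, 132 ± 3.28 and 132 ± 5.03 CPM in mVEGF-C+mAdu, mVEGF-C+mIgG, eGFP+mAdu and eGFP+mIgG (SD, n = 3 each). Srsf1, the prototype of the family, differed by 0.04 and Srsf6 by -0.03. Srsf2, a marker of nuclear speckles, differed by -0.00. Srsf11, which acts with SRRM4 on neuronal microexons, differed by -0.01 in the combined contrast and by -0.11 (adjusted p = 0.488) for mAdu under eGFP. Srsf4, Srsf9 and Srsf12 had combined differences of 0.02, -0.10 and 0.08. Under mAdu, mVEGF-C gave positive differences for 9 of 11 Srsf genes, with a median of 0.06 on the log2 scale.

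Both TRA2 genes had higher means in mVEGF-C+mAdu than in eGFP+mIgG, and Tra2a passed. Tra2a stood at 44.9, 42.0 and 43.8 CPM in the mVEGF-C+mAdu libraries and at 39.4, 38.6 and 40.4 CPM in the mVEGF-C+mIgG libraries. It stood at 39.5, 38.2 and 38.9 CPM in the eGFP+mAdu libraries and at 37.6, 35.0 and 37.1 CPM in the eGFP+mIgG libraries. The mVEGF-C+mAdu libraries lay above all others, and the eGFP+mIgG libraries lay below all others. The change of Tra2a was 0.25 (SE 0.046, adjusted p = 0.0181) in the combined contrast and 0.21 (adjusted p = 0.0333) with the GC trend removed. For each treatment alone the differences ran from 0.09 to 0.16 and none passed. Tra2b stood at 73.6, 70.1 and 66.8 CPM in the mVEGF-C+mAdu libraries and at 63.5, 66.2 and 63.2 CPM in the mVEGF-C+mIgG libraries. It stood at 61.4, 64.4 and 63.5 CPM in the eGFP+mAdu libraries and at 58.6, 66.0 and 61.6 CPM in the eGFP+mIgG libraries. The mVEGF-C+mAdu libraries of Tra2b were all higher than those of the other groups, which overlapped. Its combined difference was 0.18 (SE 0.049, adjusted p = 0.0631) and 0.13 after GC removal.

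The sequence before the start of both TRA2 genes is shown because both paralogs lay above all other groups in mVEGF-C+mAdu, and that of Hnrnpul1 because it was the member that fell. Each is the 250 bases before the start in RefSeq (GRCm38.p6), read 5′ to 3′ on the strand of the gene. The intervals are chr6:49264053-49264302 on the minus strand for Tra2a, chr16:22266006-22266255 on the minus strand for Tra2b, and chr7:25754760-25755009 on the minus strand for Hnrnpul1. Capitals mark matches, on either strand, to the CCAAT box (CCAAT), the GC box (GGGCGG), the TATA box (TATAAA), the E box (CACGTG), an ETS core (CCGGAA) and the core of the cyclic AMP response element (TGACGT).
Tra2a: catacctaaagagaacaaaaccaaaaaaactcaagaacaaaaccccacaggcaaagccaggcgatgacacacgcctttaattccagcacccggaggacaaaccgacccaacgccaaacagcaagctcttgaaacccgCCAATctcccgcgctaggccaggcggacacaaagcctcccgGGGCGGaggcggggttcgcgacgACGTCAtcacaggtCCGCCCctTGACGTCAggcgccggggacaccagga
Tra2b: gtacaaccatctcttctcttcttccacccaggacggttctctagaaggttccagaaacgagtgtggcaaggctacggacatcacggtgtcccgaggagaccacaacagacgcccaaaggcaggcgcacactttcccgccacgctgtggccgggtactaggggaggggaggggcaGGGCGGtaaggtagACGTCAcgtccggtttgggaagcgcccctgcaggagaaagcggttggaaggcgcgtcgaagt
Hnrnpul1: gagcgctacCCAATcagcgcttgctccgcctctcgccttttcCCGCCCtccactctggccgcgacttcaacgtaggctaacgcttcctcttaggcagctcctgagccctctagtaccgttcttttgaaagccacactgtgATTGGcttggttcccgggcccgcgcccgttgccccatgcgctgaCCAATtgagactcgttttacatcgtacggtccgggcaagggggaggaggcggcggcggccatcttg
The Tra2a sequence holds 3 matches to the cyclic AMP response element core, of which 2 overlap as a palindrome read on both strands. The Tra2b sequence holds 1 such match, and both hold GC boxes. The Hnrnpul1 sequence holds 3 CCAAT boxes and 1 GC box. Of 32851 such windows of all genes, 6.47% hold the TGACGT core, 33.8% the CCAAT box and 32.7% the GC box. Among 76 windows of the 61 members that matched, the shares were 21.1%, 46.1% and 61.8%, and 30.3% held the ETS core against 12.0% of all windows. The member windows were also richer in GC, with a median of 61.6% against 52.4%. The windows of all genes were not matched to the members for GC content or level. The shares therefore do not show a trait particular to the members. These are matches of letters and were not tested as binding sites. The windows of Srsf10 and Rbm18 lie inside exons annotated in GENCODE M21 and are not shown.

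The CLK kinases, which phosphorylate SR proteins, did not pass in any contrast with edgeR. DESeq2 called Clk1 over the 4 groups. Limma-voom called Clk1 for mAdu under eGFP, mVEGF-C under mAdu, the interaction and the 4 groups, and Clk2 for mVEGF-C under mIgG, the combined contrast and the 4 groups. Clk1 stood at 77.8, 84.8 and 78.0 CPM in the mVEGF-C+mAdu libraries and at 68.1, 77.6 and 73.2 CPM in the mVEGF-C+mIgG libraries. It stood at 72.1, 64.6 and 69.5 CPM in the eGFP+mAdu libraries and at 84.9, 75.6 and 79.0 CPM in the eGFP+mIgG libraries. Clk1 was lowest in eGFP+mAdu, without overlap with eGFP+mIgG, and the mVEGF-C+mAdu libraries were above all eGFP+mAdu libraries. Its difference was -0.22 for mAdu under eGFP (SE 0.058, adjusted p = 0.24) and 0.14 under mVEGF-C (SE 0.058, adjusted p = 0.337). The interaction was 0.35 (SE 0.082), the smallest p of all members for that term, and did not pass (adjusted p = 0.398). No member passed for the interaction, against 0.0134% of all genes. At an unadjusted p under 0.05 in the same edgeR test there were 10 members (14.1%), against 6.82% of all genes. Clk4, the close relative of Clk1, had differences of -0.14 for mAdu under eGFP and 0.13 for mVEGF-C under mAdu. Clk2 differed by -0.22 (SE 0.072, adjusted p = 0.106) and Clk3 by -0.06 in the combined contrast.

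**Figure D2:**
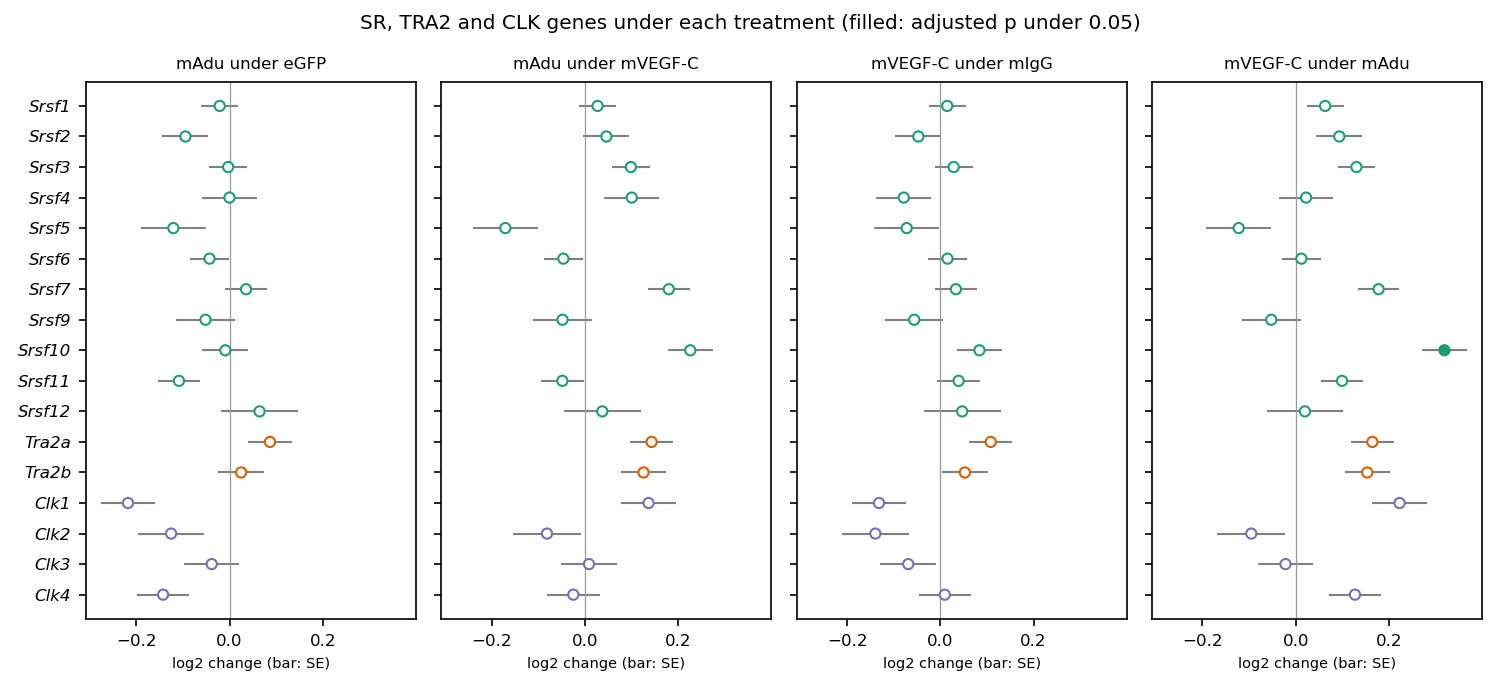
Log2 change (horizontal axes) with its standard error of each Srsf, Tra2 and Clk gene for each treatment within each level of the other. The filled point, Srsf10 for mVEGF-C under mAdu at 0.32, is the only change past an adjusted p of 0.05, and Clk1 lies at -0.22 for mAdu under eGFP and 0.14 under mVEGF-C.

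Of the 20 hnRNP genes, 1 passed in the combined contrast. Hnrnpul1, at chr7:25721165-25754757, encodes a relative of the nuclear scaffold protein HNRNPU that takes part in the repair of DNA breaks. Hnrnpul1 stood at 83.3, 80.6 and 81.9 CPM in the mVEGF-C+mAdu libraries and at 89.3, 95.3 and 86.2 CPM in the mVEGF-C+mIgG libraries. It stood at 85.2, 85.8 and 84.4 CPM in the eGFP+mAdu libraries and at 95.3, 89.9 and 90.5 CPM in the eGFP+mIgG libraries. The mVEGF-C+mAdu libraries were below every other library, and both mIgG groups were above the eGFP+mAdu group. The change of Hnrnpul1 was -0.17 (SE 0.041, adjusted p = 0.0493). It did not pass after GC removal (-0.10, adjusted p = 0.207), and the GC content of this transcript, 54.0%, is above the median of all genes.

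The remaining hnRNP genes lay close together. Combined differences of the 20 genes ran from -0.17 to 0.10, with a median of 0.03, and 15 were positive. Hnrnpk, the most abundant, differed by 0.02 with a standard error of 0.033, and its 12 libraries had a coefficient of variation of 1.84%. Hnrnpab, Hnrnpc and Hnrnpa0 differed by 0.01, 0.08 and 0.02. Hnrnpdl, a paralog of Hnrnpd, had the next lowest value at -0.14 (adjusted p = 0.121, and -0.17 after GC removal). Hnrnpu differed by 0.16 for mVEGF-C under mAdu (adjusted p = 0.124) and by -0.10 for mAdu under eGFP (adjusted p = 0.476). Hnrnpa1, which opposes SR proteins at exonic silencers, differed by 0.13 for mAdu under mVEGF-C (adjusted p = 0.23), and Hnrnpa3 and Hnrnpf by 0.15 and 0.16 for mVEGF-C under mAdu. None of these passed with edgeR.

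Among the 34 RBM genes, 3 rose in the combined contrast. Rbm12b2, at chr4:12089439-12096243, had the largest change of the members that passed. Rbm12b2 stood at 15.7, 19.7 and 15.9 CPM in the mVEGF-C+mAdu libraries and at 13.7, 13.8 and 13.1 CPM in the mVEGF-C+mIgG libraries. It stood at 12.7, 13.2 and 12.9 CPM in the eGFP+mAdu libraries and at 11.3, 11.7 and 12.2 CPM in the eGFP+mIgG libraries. The mVEGF-C+mAdu libraries were above all others, library 11 most of all, and the eGFP+mIgG libraries were below all others. The change was 0.54 (SE 0.083, adjusted p = 0.00895), and 0.49 with the GC trend removed (adjusted p = 0.025). Its near-identical neighbour Rbm12b1 differed by 0.24 in the combined contrast and by 0.49 for mVEGF-C under mAdu (SE 0.13, adjusted p = 0.128).

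Rbm18 stood at 59.3, 59.2 and 58.6 CPM in the mVEGF-C+mAdu libraries and at 53.5, 51.3 and 53.0 CPM in the mVEGF-C+mIgG libraries. It stood at 51.4, 54.6 and 51.4 CPM in the eGFP+mAdu libraries and at 51.2, 49.5 and 54.8 CPM in the eGFP+mIgG libraries. Rbm18 was highest in mVEGF-C+mAdu and overlapped among the other groups. Its combined change was 0.19 (SE 0.045, adjusted p = 0.0433), and 0.18 after GC removal (adjusted p = 0.06). Rbm41 stood at 9.99, 10.0 and 10.7 CPM in the mVEGF-C+mAdu libraries and at 9.21, 10.1 and 8.88 CPM in the mVEGF-C+mIgG libraries. It stood at 8.76, 8.66 and 8.36 CPM in the eGFP+mAdu libraries and at 6.43, 8.65 and 7.81 CPM in the eGFP+mIgG libraries. Rbm41, whose protein is related to a component of the minor spliceosome, was highest in mVEGF-C+mAdu on average, with overlap with mVEGF-C+mIgG, and its eGFP+mIgG libraries spread from the lowest value to within the eGFP+mAdu range. The combined change was 0.43 (SE 0.10, adjusted p = 0.038) and 0.35 after GC removal (adjusted p = 0.0779). At a GC content of 38.8%, Rbm41 has among the GC-poorest transcripts of the members.

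Other RBM genes with larger values did not pass with edgeR. Rbm26, which links polyadenylated nuclear RNA to the exosome, differed by 0.16 for mVEGF-C under mAdu (adjusted p = 0.124). Rbm34 had the smallest p among members with a negative difference for mVEGF-C under mAdu, at -0.14 (adjusted p = 0.268). Rbm5, a regulator of alternative splicing in apoptosis genes, had an interaction value of 0.20 (adjusted p = 0.673). Rbm34, Rbm15b, a subunit of the complex that methylates adenosines in mRNA, and Rbm17 had the smallest p among negative interaction values, at -0.14, -0.09 and -0.09. Rbm39, Rbm17 and Rbm45 had combined differences of 0.08, -0.09 and 0.00. Rbm38 and Rbm46 had the widest error, with combined values of -0.48 (SE 0.27) and -0.54 (SE 0.30) from as few as 14 and 18 reads in a library, and Rbm20 differed by -0.03 (SE 0.15).

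**Figure D3:**
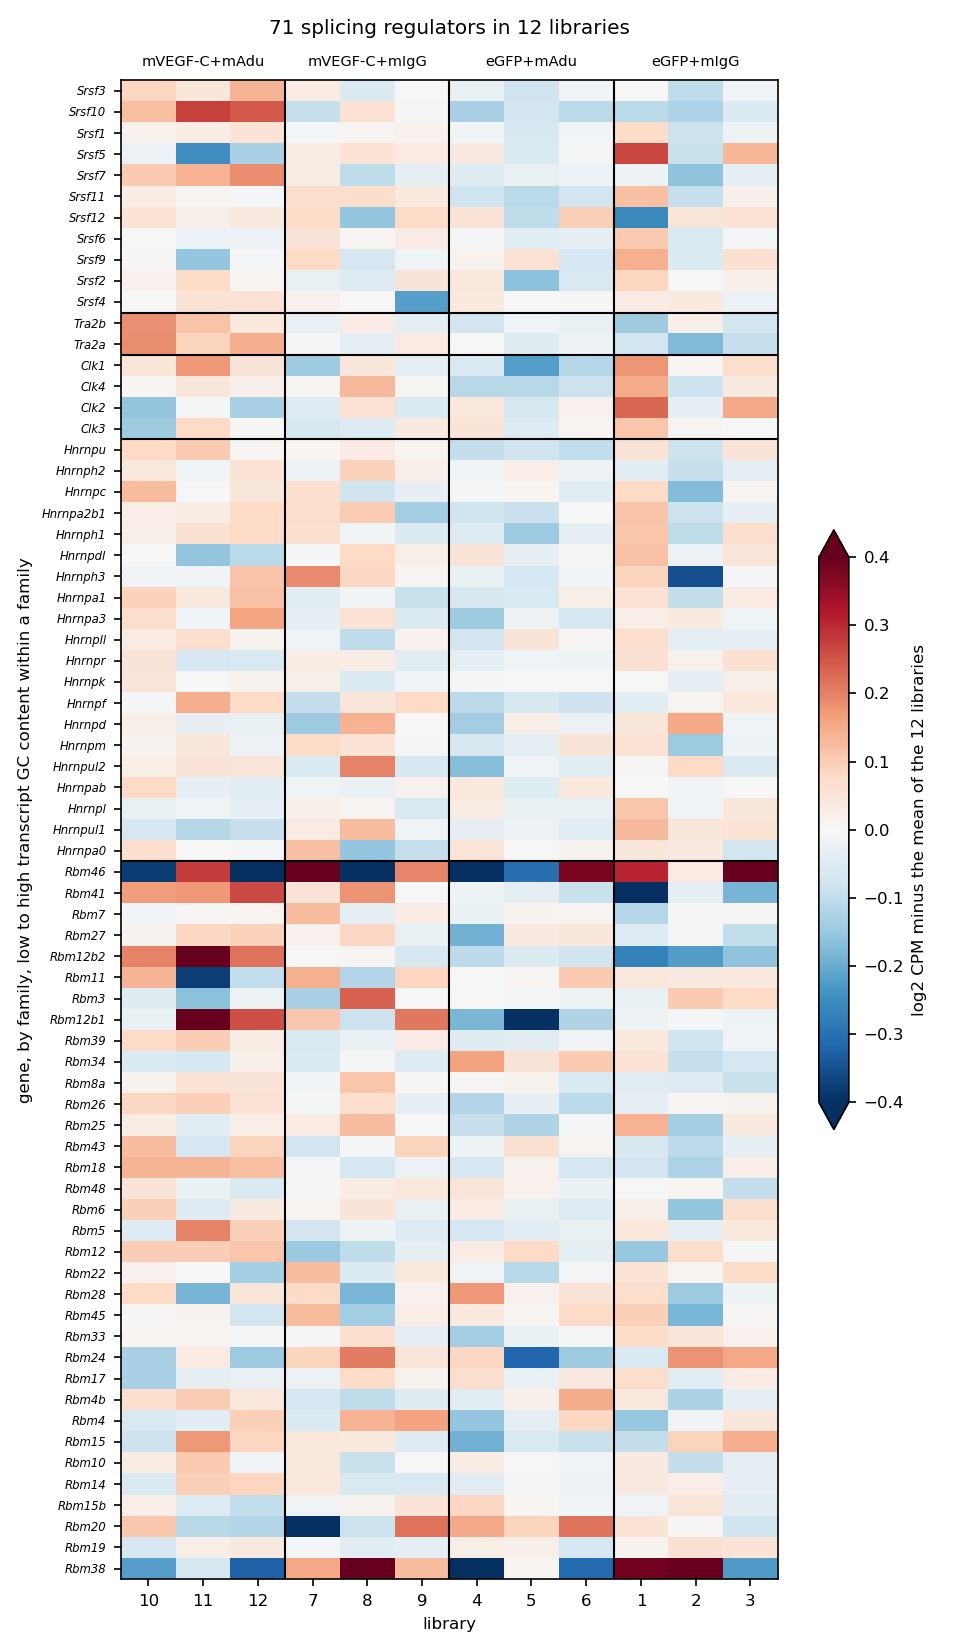
Level of all 71 members (vertical axis, by family and by rising GC content within a family) in each of the 12 libraries (horizontal axis, by group), as log2 CPM minus the mean of the 12 libraries. Srsf10, Tra2a, Tra2b, Rbm12b2 and Rbm18 are red in all 3 mVEGF-C+mAdu columns, and the red of library 1 against the blue of library 2 within eGFP+mIgG runs through many genes.

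For each treatment within a level of the other, the members' calls were few. For mAdu under eGFP 0 of 71 members passed, against 0.0336% of all genes, and 10 members (14.1%) had an unadjusted p under 0.05 in the edgeR test, against 9.21%. The smallest p of the members was that of Clk1, and Hnrnpul1 (-0.11) and Clk4 followed. For mAdu under mVEGF-C 0 passed, against 0.208%, with 16 members (22.5%) at an unadjusted p under 0.05, against 12.7%. For mVEGF-C under mIgG 0 passed, against 0.0403%, and 6 members (8.45%) had an unadjusted p under 0.05, against 7.91%. Rbm41 had the smallest p in that contrast at 0.31 (adjusted p = 0.551), and Clk1 (-0.13), Clk2 (-0.14) and Hnrnpl (-0.06) had the smallest p among negative differences. For mVEGF-C under mAdu 22 members (31.0%) had an unadjusted p under 0.05, against 14.3% of all genes. DESeq2 called 0, 1, 0 and 2 members in these 4 contrasts, against 0.316%, 0.847%, 0.134% and 0.800% of all genes. Limma-voom with quality weights called 2 (2.82%), 11 (15.5%), 1 (1.41%) and 12 (16.9%), against 3.41%, 8.29%, 6.30% and 6.52% of all genes. In the comparison of all 4 groups Srsf10 (adjusted p = 0.0136) and Rbm12b2 (adjusted p = 0.0264) passed, against 0.618% of all genes. For the interaction DESeq2 called 0 members and limma-voom called 2 (2.82%, against 1.48% of all genes), Clk1 and Srsf10.

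The direction of the differences leaned upward where mVEGF-C was compared under mAdu. There 54 of 71 members had a positive difference (76.1%), against 50.4% of all genes, with medians of 0.04 and 0.00 on the log2 scale. Without libraries 3, 6, 9 and 12 there were again 54, against 49.5% of all genes. In 25 members (35.2%) all mVEGF-C+mAdu libraries were above all eGFP+mAdu libraries, against 11.5% of all genes, and in 3 (4.23%) all were below, against 10.2%. The 25 were made up of 5 Srsf, 2 Tra2, 2 Clk, 7 Hnrnp and 9 Rbm genes. After removal of the GC trend there were 29 members above (40.8%), against 14.3% of all genes, and 6 below (8.45%), against 6.28%. In the combined contrast 45 members had a positive difference (63.4%), against 48.9%. All mVEGF-C+mAdu libraries were above all eGFP+mIgG libraries in 13 members (18.3%), against 13.9% of all genes, and below in 3 (4.23%), against 13.4%. After GC removal these were 15 (21.1%), against 17.6%, and 6 (8.45%), against 7.55%. For mAdu under eGFP 29 members were positive (40.8%), against 49.2%, with 5 wholly above (7.04%, against 7.63%) and 9 wholly below (12.7%, against 7.78%). For mVEGF-C under mIgG 39 were positive (54.9%), against 50.2%, with 5 wholly above (7.04%, against 6.38%) and 1 wholly below (1.41%, against 5.99%). For mAdu under mVEGF-C 43 were positive (60.6%), against 50.5%, with 11 wholly above (15.5%, against 8.37%) and 7 wholly below (9.86%, against 8.12%). For the interaction 48 were positive (67.6%), against 51.7%. After GC removal the positive shares were 76.1% for mVEGF-C under mAdu, against 59.7% of all genes, and 64.8% in the combined contrast, against 60.1%. They were 62.0% for mAdu under mVEGF-C, against 60.0%, and 45.1% for mVEGF-C under mIgG, against 53.0%. For mAdu under eGFP the share was 40.8%, against 52.6%, and for the interaction 70.4%, against 57.3%. These contrasts share groups, so their counts are not independent. In the combined contrast 47 of 71 differences were smaller than 0.1 on the log2 scale in size, and the median standard error was 0.0566.

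Each library had its own trend of level with transcript GC content, and the members are GC-poor. Their median GC content was 46.9%, against 50.8% for all genes, and 52 of 71 lay below the median of all genes. The slope of log2 CPM over all genes, for each 10 points of GC content, was -0.0974, -0.0129 and -0.0439 in the mVEGF-C+mAdu libraries 10, 11 and 12 and 0.0309, -0.0348 and -0.0294 in the mVEGF-C+mIgG libraries 7, 8 and 9. It was 0.0554, 0.0133 and -0.00161 in the eGFP+mAdu libraries 4, 5 and 6 and 0.0524, 0.0476 and 0.0203 in the eGFP+mIgG libraries 1, 2 and 3. The mVEGF-C+mAdu slopes were all negative and the eGFP+mIgG slopes all positive, while those of mVEGF-C+mIgG overlapped both. The eGFP+mAdu slopes overlapped those of eGFP+mIgG and were all above those of mVEGF-C+mAdu. Group means were -0.0514 ± 0.0427, -0.0111 ± 0.0365, 0.0224 ± 0.0296 and 0.0401 ± 0.0173 in mVEGF-C+mAdu, mVEGF-C+mIgG, eGFP+mAdu and eGFP+mIgG (SD, n = 3 each). The slopes differed between the groups in an exact permutation test of the F ratio over 369600 assignments (F = 4.50, p = 0.0390). Without the members the exact permutation test gave p = 0.0405, and without libraries 3, 6, 9 and 12 it gave p = 0.219. With 1 library left out the exact permutation p ran from 0.0162 to 0.105 and was above 0.05 without library 1, 2, 5, 8, 9, 10 or 12. A negative slope means that GC-poor transcripts were counted relatively more.

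**Figure D4:**
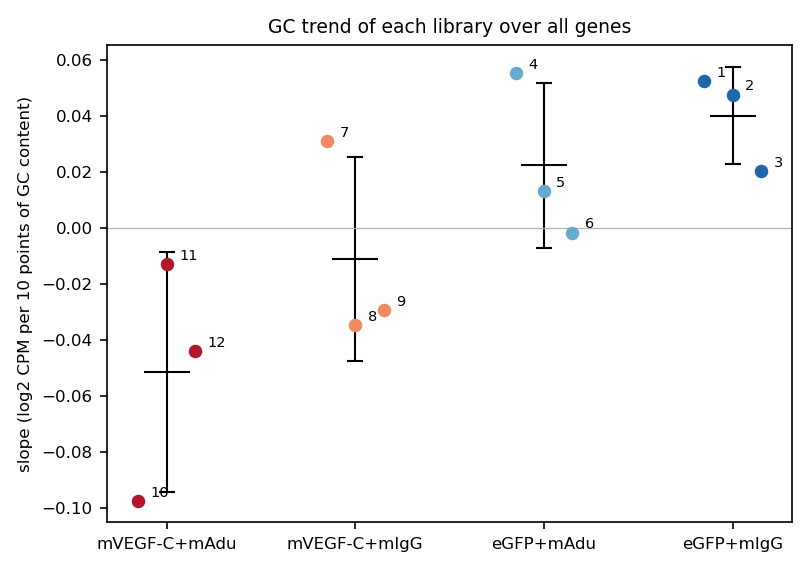
Slope of log2 CPM against transcript GC content over all genes (vertical axis, for 10 points of GC content) in each library, by group, with the mean and SD of 3. The slopes of mVEGF-C+mAdu lie at -0.0129 and below, and those of eGFP+mIgG at 0.0203 and above.

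The members' differences leaned the same way with GC content. With all genes cut at GC contents of 47.9% and 53.9% into 3 parts of equal size, 39 members fell in the GC-poor part, 20 in the middle and 12 in the GC-rich part. In the combined contrast 30 of 39 GC-poor members had a positive difference, against 70.9% of all GC-poor genes, and 4 of 12 GC-rich members did, against 26.8% of all GC-rich genes. Median differences were 0.06 for GC-poor members and 0.06 for all GC-poor genes, and -0.03 for GC-rich members and -0.07 for all GC-rich genes. All 6 members that rose were GC-poor and the member that fell, Hnrnpul1, was GC-rich. Of all genes with a GC content, 140 of the 176 that rose were GC-poor and 96 of the 144 that fell were GC-rich. Across genes, Spearman's rho between GC content and the combined change was -0.407 over the 71 members and -0.399 over 14791 genes, as a description of genes that share libraries. With the trend of each library removed, rho was 0.0667 and -0.000239. For mVEGF-C under mAdu 33 of 39 GC-poor members had a positive difference, against 69.6% of all GC-poor genes. Once the trend was removed, 29 of 39 were positive, against 59.6%.

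Removing the GC trend left 4 members past the threshold in the combined contrast. Srsf10, Tra2a and Rbm12b2 remained from the 7, and Srsf5 was added with a negative change. The all-gene count was 193 (139 higher and 54 lower), against 324 as counted (177 higher and 147 lower), and the median change of all genes was near 0.03 in each GC part. The step took out the level of each fitted trend as well as its shape, so it also rescaled each library. Positive differences made up 60.1% of all genes after it, against 48.9% as counted. Values and calls after GC removal therefore mix the GC correction with this rescaling. Whether the GC trend accounts for the remaining changes was not tested.

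**Figure D5:**
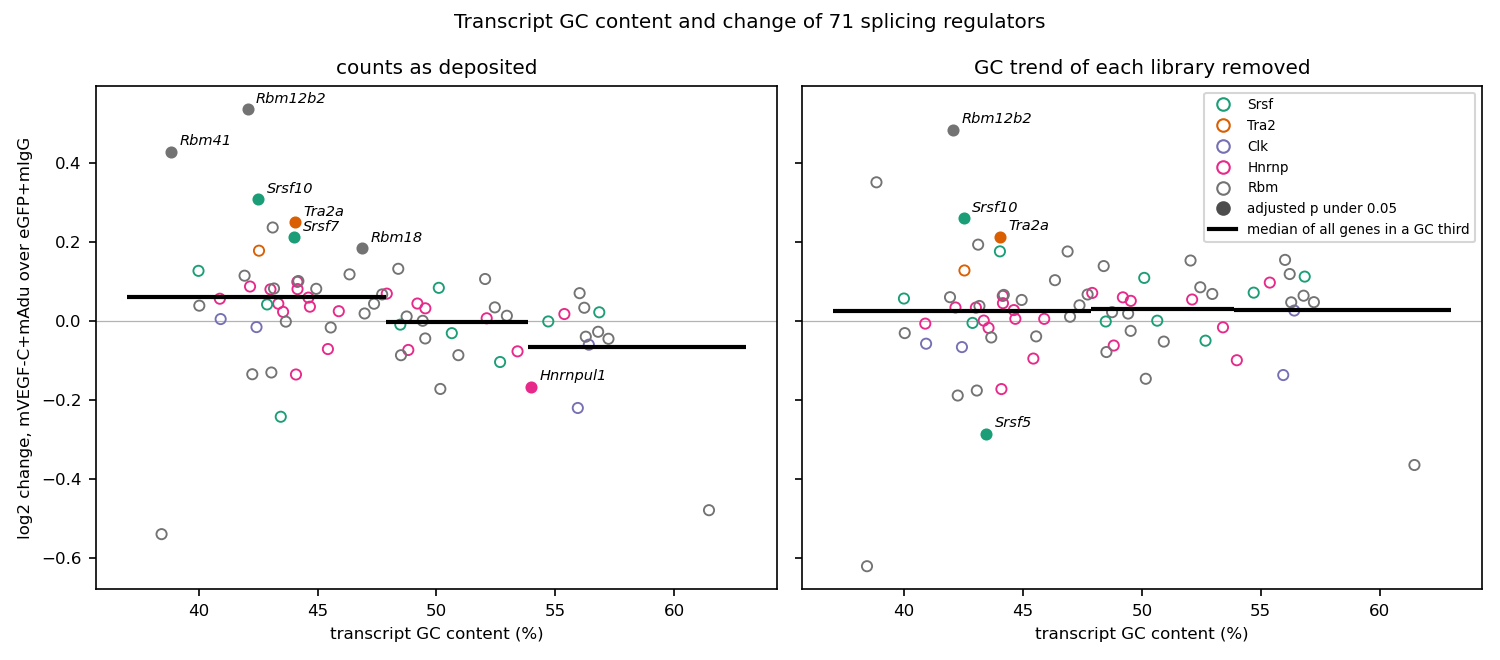
Log2 change of each member in the combined contrast (vertical axis) against transcript GC content in percent (horizontal axis), from the counts as deposited (left) and after each library's GC trend was removed (right). Colours mark families, filled points have an adjusted p under 0.05, and bars give the median of all genes in each GC part: 0.06, about 0 and -0.07 on the left, and about 0.03 throughout on the right.

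Libraries of a group also differed among themselves. In eGFP+mIgG, 18 members varied between the 3 libraries beyond counting noise (chi-square p under 0.001), or 25.4%, against 10.6% of all genes. Of these 16 were highest in library 1 and 17 lowest in library 2. Among them were Clk1, Srsf5, Srsf11, Hnrnpa1, Hnrnpu and Rbm39. In mVEGF-C+mAdu 9 members varied (12.7%, against 8.03%), in mVEGF-C+mIgG 10 (14.1%, against 18.2%) and in eGFP+mAdu 4 (5.63%, against 11.2%). The combined calls depended on single libraries. Without library 1 no member passed, without library 12 only Rbm12b2, without library 3 or library 10 Srsf10 and Rbm12b2, and without library 6 or library 11 Srsf10, Rbm12b2 and Tra2a. Without library 2 there were again 7, but only 4 of them the same, with Srsf5, Clk2 and Tra2b added. Without library 9 there were 4. The calls over all genes depended on the same libraries: 324 with all libraries, 21 without library 1, 56 without library 3, 123 without library 6, 145 without library 9, 43 without library 10, 243 without library 11 and 12 without library 12. Over the 12 omissions Rbm12b2 passed 11 times, Srsf10 10, Tra2a 8, Srsf7 and Rbm41 5 each, Rbm18 4 and Hnrnpul1 2. The call of Srsf10 for mVEGF-C under mAdu was lost without library 3, 4, 6, 9, 11 or 12, while its change stayed between 0.29 and 0.36.

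Other genes of the splicing machinery were set beside all genes in the combined contrast. Of all genes 2.18% passed with edgeR, 20.4% had a p under 0.05 before adjustment, DESeq2 called 3.06% and limma-voom called 17.9%. Of 42 core spliceosome genes 0 passed with edgeR, 9 had a p under 0.05 before adjustment, DESeq2 called 0 and limma-voom called 8. Of their differences 17 were positive, with a median of -0.02, and values ran from -0.18 for Snrnp70, the U1 protein, to 0.13 for Cdc5l. Of 26 SR kinases and SR-related genes Scaf1, an SR-like protein that binds the tail of RNA polymerase II, fell by 0.24 (adjusted p = 0.0181), and the median was -0.05. It averaged 60.7 ± 1.46 CPM in mVEGF-C+mAdu and 71.8 ± 3.53 CPM in eGFP+mIgG (SD, n = 3 each). Srek1 had the highest value at 0.16. Of these 26 genes 9 had a p under 0.05 before adjustment with edgeR, DESeq2 called 1 and limma-voom called 8. Of 35 measured neuronal and tissue regulators Elavl2, a neuronal Hu protein, rose by 0.25 (adjusted p = 0.0262), with 103 ± 6.44 CPM in mVEGF-C+mAdu and 86.6 ± 3.31 CPM in eGFP+mIgG (SD, n = 3 each). The median of that list was 0.03, and Srrm3 had the lowest value at -0.24. Of these 35 genes 13 had a p under 0.05 before adjustment with edgeR, DESeq2 called 1 and limma-voom called 12. For mVEGF-C under mAdu, where the members leaned most, 25 of 35 neuronal and tissue regulators had a positive difference (median 0.05). So had 18 of 26 SR kinases and SR-related genes (median 0.03) and 22 of 42 core spliceosome genes (median 0.01), against 50.4% of all genes.

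Nuclear and stress-related RNAs were examined beside the members. Of 6 nuclear retained RNAs 5 had a negative combined difference (median -0.35), and Miat fell by 0.61 (adjusted p = 0.0328, edgeR). Malat1, the abundant speckle RNA, differed by -0.45 and did not pass (adjusted p = 0.0660). The summed level of that list was 3300 to 3989 CPM in mVEGF-C+mAdu and 3773 to 6113 CPM in eGFP+mIgG. It was 3961 to 4757 CPM in mVEGF-C+mIgG and 3566 to 3667 CPM in eGFP+mAdu. The mVEGF-C+mAdu sums thus overlapped those of eGFP+mAdu, and the eGFP+mIgG sums spread widely. Of 12 heat shock genes 11 had a positive difference (median 0.16, summed level 4319 to 4429 CPM in mVEGF-C+mAdu and 3781 to 4065 CPM in eGFP+mIgG), and Hsp90aa1 (0.19), Dnaja1 (0.18) and Chordc1 (0.24) rose. Cirbp, the cold-inducible partner of Rbm3, fell by 0.22 (adjusted p = 0.0414), whereas Rbm3 differed by -0.13 (adjusted p = 0.311). Of 16 immediate early genes 6 rose, led by Egr2 (1.57) and Fos (0.99), with a median of 0.37 over the list. They summed to 593 to 763 CPM in mVEGF-C+mAdu and 673 to 718 in mVEGF-C+mIgG. In eGFP+mAdu the sums were 515 to 540 CPM and in eGFP+mIgG 472 to 614. Fos (1.02, adjusted p = 0.0260) and Npas4 (0.88, adjusted p = 0.0133) also rose for mVEGF-C under mIgG (edgeR), where no splicing regulator passed. The part of these lists in the splicing regulators' changes was not tested.

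Markers of neighbouring tissue had lower means in mVEGF-C+mAdu than in eGFP+mIgG. All 5 measured choroid plexus markers, all 6 meningeal fibroblast markers, all 4 ependymal markers and all 6 striatal markers had negative differences. Among them Ttr fell by 1.62 (adjusted p = 0.00895, edgeR) and Foxj1 fell by 0.55 (adjusted p = 0.0396). Choroid plexus markers summed to 39.7 to 43.3 CPM in mVEGF-C+mAdu and 56.7 to 103 CPM in eGFP+mIgG, and meningeal fibroblast markers to 79.6 to 93.4 CPM in mVEGF-C+mAdu and 89.7 to 125 CPM in eGFP+mIgG. Ependymal markers summed to 15.2 to 25.3 CPM in mVEGF-C+mAdu and 26.2 to 32.1 CPM in eGFP+mIgG, and striatal markers to 52.4 to 62.0 and 60.8 to 62.9 CPM in the same groups. Of 6 microglia markers 5 had a negative combined difference, and C1qa fell by 0.43 (adjusted p = 0.0420, edgeR). Microglia markers summed to 407 to 413 CPM in mVEGF-C+mAdu and 428 to 469 CPM in eGFP+mIgG. Of 5 astrocyte markers 3 were negative, and Aldh1l1 fell by 0.21 (adjusted p = 0.0457, edgeR). For mVEGF-C under mAdu, where the members leaned most, median differences were -1.0 for choroid plexus markers, with Ttr falling by 1.76 (adjusted p = 0.0176, edgeR), -0.59 for ependymal, -0.48 for striatal, -0.46 for meningeal fibroblast and -0.16 for microglia markers. All 6 microglia markers were negative there, and 4 of 6 excitatory neuron markers were positive. None of the defining markers Ttr, Foxj1 and Col1a1 was at 0. Excitatory neuron markers had 3 of 6 positive differences, none of which passed, and summed to 2016 to 2034 CPM in mVEGF-C+mAdu and 2075 to 2223 CPM in eGFP+mIgG. Mitochondrial reads made up 6.11% to 7.17% of reads in mVEGF-C+mAdu and 5.11% to 5.93% in eGFP+mIgG. The part of these differences in the changes of the splicing regulators was not tested.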

How the data were processed

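Total RNA was extracted with the PicoPure kit and amplified linearly, per the labels' protocols. The authors deposited untransformed counts of reads for each Ensembl gene. The programs FastQC, Trim Galore, STAR, Subread, featureCounts, edgeR and the build mm10 are named in the submitters' processing notes. The gene annotation, strand setting and treatment of reads mapping to several places were not stated there, and genes with few reads are absent from the table.

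Symbols, GC content and exon lengths were taken from GENCODE M21 (GRCm38), which named 14797 of 14881 identifiers. GC content was available for 14791. The lowest total of a gene was 147 reads over 12 libraries, and filterByExpr removed none. Counts were fitted with edgeR 4.0.16 (R 4.3.3, TMM scaling, 1 mean per group, quasi-likelihood tests), with Benjamini-Hochberg adjustment over all genes and a threshold of 0.05. Each contrast took the same 12-library fit, whose biological coefficient of variation was 5.16%, and the script was tested on simulated data. GC trends were natural splines with 4 degrees of freedom and an intercept for each library, entered as offsets. DESeq2 1.42.0 and limma 3.58.1 served as alternatives. Levels between genes are CPM per kb of the union of all annotated exons of a gene. Counts describe reads, not molecules, so depth by itself lowers counting error only. The standard errors and p-values also take in the spread between libraries of a group.

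The members and lists were chosen with earlier results of these data known. Genes were named by rule: all Srsf, Tra2 and Clk members, and of the other families those that passed, those with the smallest p in the comparison of the 4 groups or in a contrast, and those highest and lowest per kb. Clk2 and Tra2b among single-library omissions, Malat1, and genes named among those varying within a group, were picked after their values were seen. The replicate numbers 1 to 12 name mice and pair none. P-values treat the libraries as separate mice, as the labels state, which pooling in libraries 3, 6, 9 and 12 would undo.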

Additional observations from a re-analysis of the deposited data

How the results depend on the processing

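No paired analysis was possible because the replicate numbers run from 1 to 12 and no number is shared between groups. DESeq2 size factors left every count of members called unchanged, as did fitting only the groups compared in the 5 contrasts where that was run. The filter on low counts removed no gene, so the fit without it was the same fit. Members called in mAdu under eGFP, mAdu under mVEGF-C, mVEGF-C under mIgG, mVEGF-C under mAdu, the combined contrast, the interaction and the 4 groups numbered 0, 0, 0, 1, 7, 0 and 2. With limma-voom and quality weights they numbered 2, 11, 1, 12, 19, 2 and 23. The DESeq2 test gave 1 in mAdu under mVEGF-C, 2 in mVEGF-C under mAdu, 8 in the combined contrast and 5 over the 4 groups. Limma-voom called 26.8% of members in the combined contrast, against 17.9% of all genes, and 32.4% over the 4 groups, against 25.5%. For DESeq2 these shares were 11.3%, against 3.06%, and 7.04%, against 2.88%. With the GC trend removed there were 0 in mVEGF-C under mAdu, 4 in the combined contrast and 1 over the 4 groups, and with GC and length trends removed 0, 4 and 2. Without libraries 3, 6, 9 and 12 these 3 counts were 0, 0 and 0, with fewer samples in the fit, and likewise with the GC trend removed as well, a setting chosen after seeing the data. Leaving out each library in turn gave 0 to 1 in mAdu under mVEGF-C and in mVEGF-C under mAdu, 0 to 8 in the combined contrast, 0 to 4 over the 4 groups and 0 in the others. For the GC slopes F was 3.16 to 6.29 under these omissions and 2.63 without libraries 3, 6, 9 and 12. For 39 pairs of member and contrast, those that passed or had the smallest p, no difference changed sign among 813 alternative values. Of these values 71 lost the call and 21 gained one. The pairs were picked by p in the same data, so a steady sign was largely fixed by that choice. The alternatives also count the fit without the filter and omissions of libraries outside a contrast, which hardly move a value. Of all 426 pairs, 175 changed sign under at least 1 alternative, each with a reported size of 0.12 or less. All-gene calls in the combined contrast were 324 as reported, 610 with only the groups compared, 193 with the GC trend removed, 207 with length as well, 2660 with limma-voom and 2 without libraries 3, 6, 9 and 12. Causes were not tested. With 3 mice a group and a median standard error of 0.0566, smaller differences among members could not be shown, and counts of overlapping and near-identical genes are limits of the table.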
